A study of Mus musculus with 3 samples.

Results

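The genes described here encode 10 transcription factors of epithelial-mesenchymal transition: the zinc finger repressors Snai1, Snai2 and Snai3, the basic helix-loop-helix (bHLH) factors Twist1 and Twist2, the zinc finger and homeodomain repressors Zeb1 and Zeb2, the E-proteins Tcf3 and Tcf4, and the paired-related homeobox factor Prrx1. They were taken by name, as the probe sets annotated with that 1 gene symbol, and all 10 of 10 were found among the 19935 genes that could be compared. Each had 1 such probe set, and none shared a probe set with another gene. Tcf3 and Tcf4 here are the E-protein genes, not the Wnt effectors Tcf7l1 and Tcf7l2 that have gone by the same names.

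Gene expression was measured on 3 Affymetrix arrays in NMuMG cells, a mouse mammary epithelial line, all grown with puromycin. The MAFK cells, clone 4 and clone 10, were stable lines with FLAG-MafK in the pCAGIP vector (1 array each, n = 2). The mock cells carried pCAGIP without MafK (1 array, n = 1). MAFK belongs to the small MAF proteins, leucine zipper factors that bind DNA and have no transactivation domain. Each MAFK line is 1 clone and the mock cells are not labelled as one, so an effect of MAFK and one of cloning cannot be told apart. Separate cultures are not stated in the labels, so a p-value rests only on spread between the 2 MAFK arrays, which may be technical. It combines the gene's own spread with that of other genes. For genes equal in both clones it rests on other genes alone. The mock cells' own spread is unknown. Values are log2 intensities made by the authors with RMA, and a difference of 1 is 2-fold.

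SNAIL, ZEB and TWIST proteins bind E-boxes, short DNA motifs, in the promoters of epithelial genes, of which the E-cadherin gene Cdh1 is the best known. SNAIL proteins recruit corepressors through an N-terminal SNAG domain, ZEB proteins recruit CtBP, and TWIST proteins bind DNA as dimers with E-proteins, which ID proteins can sequester. In NMuMG cells, transforming growth factor beta is widely used to induce the transition, and Snail and Zeb genes are known to respond to it.

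The E-box form that SNAIL and ZEB proteins prefer, CAGGTG, was looked for on both strands (as CAGGTG and CACCTG) in RefSeq windows of 250 bases before to 50 after each start site (GRCm38.p6). At least 1 match was present in 20.2% of all 32851 windows, and at least 4 in 0.0548%. Windows were found for 6 of the 10 factors, of which only Snai1 held a match, 1, at position -126 from the start site. It is shown because SNAIL is known, from human cells, to repress its own gene through such a box. Lsr and Crb3, an angulin gene of tricellular junctions and an apical polarity gene, held 4 matches each, the most among the epithelial genes with a window, and their values lay on opposite sides of mock, as given with the epithelial genes. Capitals mark the matches. A match is a run of letters and not a binding site.
Snai1, chr2:167537945-167538244, + strand: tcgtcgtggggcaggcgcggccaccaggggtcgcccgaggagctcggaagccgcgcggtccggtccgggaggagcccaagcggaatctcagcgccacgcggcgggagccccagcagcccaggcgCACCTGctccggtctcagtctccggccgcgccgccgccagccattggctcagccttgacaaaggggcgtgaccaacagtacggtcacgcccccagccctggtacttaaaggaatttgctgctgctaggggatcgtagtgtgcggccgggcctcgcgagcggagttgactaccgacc
Lsr, chr7:30973420-30973719, - strand: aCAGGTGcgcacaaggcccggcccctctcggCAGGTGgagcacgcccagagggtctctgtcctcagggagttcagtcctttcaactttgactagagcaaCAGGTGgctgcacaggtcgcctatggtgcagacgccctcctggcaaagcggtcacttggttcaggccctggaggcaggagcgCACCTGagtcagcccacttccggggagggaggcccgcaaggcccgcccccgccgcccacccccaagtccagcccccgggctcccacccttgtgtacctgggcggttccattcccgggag
Crb3, chr17:57061951-57062250, + strand: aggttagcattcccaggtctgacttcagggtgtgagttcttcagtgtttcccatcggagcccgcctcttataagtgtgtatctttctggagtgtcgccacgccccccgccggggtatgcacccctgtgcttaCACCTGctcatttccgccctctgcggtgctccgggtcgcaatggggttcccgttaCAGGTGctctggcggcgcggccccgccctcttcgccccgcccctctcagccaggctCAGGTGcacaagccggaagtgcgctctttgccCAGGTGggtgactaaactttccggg

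None of the 10 factors was at least 2-fold higher or lower than mock in both clones, against 3% of all 19935 genes (1.19% higher and 1.81% lower). None rose or fell, where these words are used of a gene 2-fold apart in both clones with a limma adjusted p under 0.05, against 1.16% of all genes (0.401% rose and 0.762% fell). At an unadjusted p under 0.05, limma passed 1 of the 10, Twist1, against 17.5% of all genes. With 10 genes, a count of 0 lies near the share over all genes, so it says little by itself, and each factor is given by its values. The median difference of the 10 was 0 in both clones, as it was over all genes, and the median size of the difference between MAFK and mock was 0.01 on the log2 scale, against 0.04 over all genes. The E-cadherin gene Cdh1 read 6.85 in clone 4 and 6.64 in clone 10, against 11.35 in mock, and fell by 4.60 on the log2 scale on the same arrays (limma adjusted p = 0.0282).

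**Figure D1:**
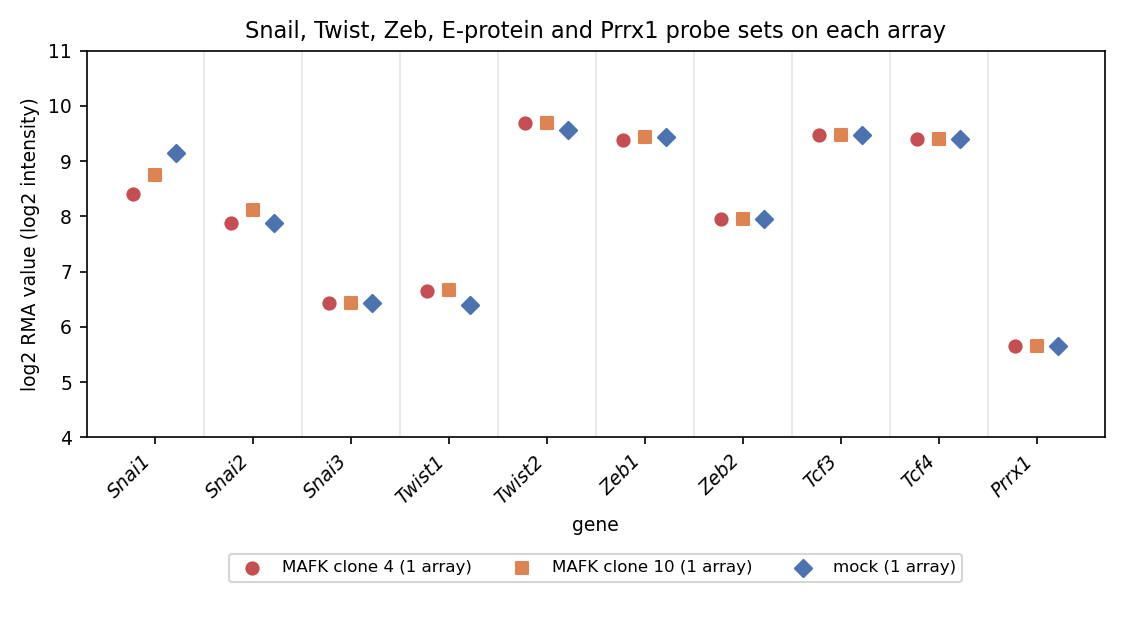
Log2 RMA values (y axis) of the 10 factors (x axis) on each array, 1 point per array: MAFK clone 4 (circles), MAFK clone 10 (squares) and mock (diamonds). Snai1 is lower in both clones, at 8.41 and 8.75 against 9.16 in mock, and the points of each of the other 9 genes lie within 0.28 of each other. Heights are not comparable between genes, because probe sets differ in affinity.

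Within the SNAIL family, Snai1, the gene of SNAIL itself, had the largest difference of the 10. It read 8.41 in clone 4 and 8.75 in clone 10, against 9.16 in mock. Both clones thus lay below mock, as did those of 17.9% of all genes at any size, clone 4 by 1.67-fold and clone 10 by 1.32-fold, and the clones differed from each other by 0.34 on the log2 scale. The mean difference was -0.57 ± 0.18 on the log2 scale (SE, n = 2 against 1), with a limma adjusted p of 0.297. Its 95% interval ran from 0.445 to 1.01 times the mock level, so it includes both a 2-fold decrease and no difference. With 3 arrays an exact permutation test (two-sided) has 3 arrangements and cannot go below p = 0.333, the value it gave for Snai1.

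Snai2, which encodes SLUG, read 7.88 in clone 4 and 8.12 in clone 10, against 7.88 in mock. Only clone 10 was above mock, and the groups overlapped (difference 0.12 ± 0.14, SE, on the log2 scale). The interval of the Snai2 difference ran from 0.795 to 1.49 times mock. Snai3, the remaining SNAIL family gene, known mainly from skeletal muscle and thymus, read 6.43 on all 3 arrays.

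The TWIST genes lay slightly above mock in both clones. Twist1, a bHLH factor of cranial mesenchyme and of invasive tumour cells, read 6.65 in clone 4 and 6.67 in clone 10, against 6.39 in mock. The difference was 0.27 ± 0.07 (SE, n = 2 against 1) on the log2 scale, and its limma adjusted p was 0.235. Twist1 passed the p threshold under 4 alternative fits, with adjusted p-values of 0.0261 to 0.0405, and under none did it reach 1.5-fold. Twist2, its close paralog, read 9.68 in both clones, against 9.57 in mock. This was 1.08-fold higher (limma adjusted p = 0.623), with an interval of 0.928 to 1.26 times mock, and passed the p threshold under 2 alternative fits (adjusted p = 0.0392 and 0.0427). Above mock in both clones, at any size, were 33.7% of all genes.

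Neither ZEB gene differed from mock by more than 0.05 on the log2 scale in either clone. Zeb1 read 9.39 in clone 4 and 9.44 in clone 10, against 9.44 in mock, so that clone 10 and mock had the same value. The interval of the Zeb1 difference ran from 0.834 to 1.16 times mock. Zeb2 read 7.96 on all 3 arrays. Prrx1, a homeobox factor of limb and head mesenchyme that can drive the transition apart from SNAIL, read 5.65 on all 3 arrays.

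Tcf3 and Tcf4, the E-proteins that pair with TWIST and are bound by ID proteins, had no measured difference. Tcf3 read 9.47 and Tcf4 9.40 on all 3 arrays. In all, 5 of the 10 factors (Snai3, Zeb2, Tcf3, Tcf4 and Prrx1) had the same value on all 3 arrays, against 34.3% of all genes. Median polish, the step of RMA that summarises the probes of a set, can return equal values over 3 arrays, so a tie does not show equal RNA. For these 5 genes the interval of the difference, which rests on the spread of other genes, was 0.857 to 1.17 times mock.

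**Figure D2:**
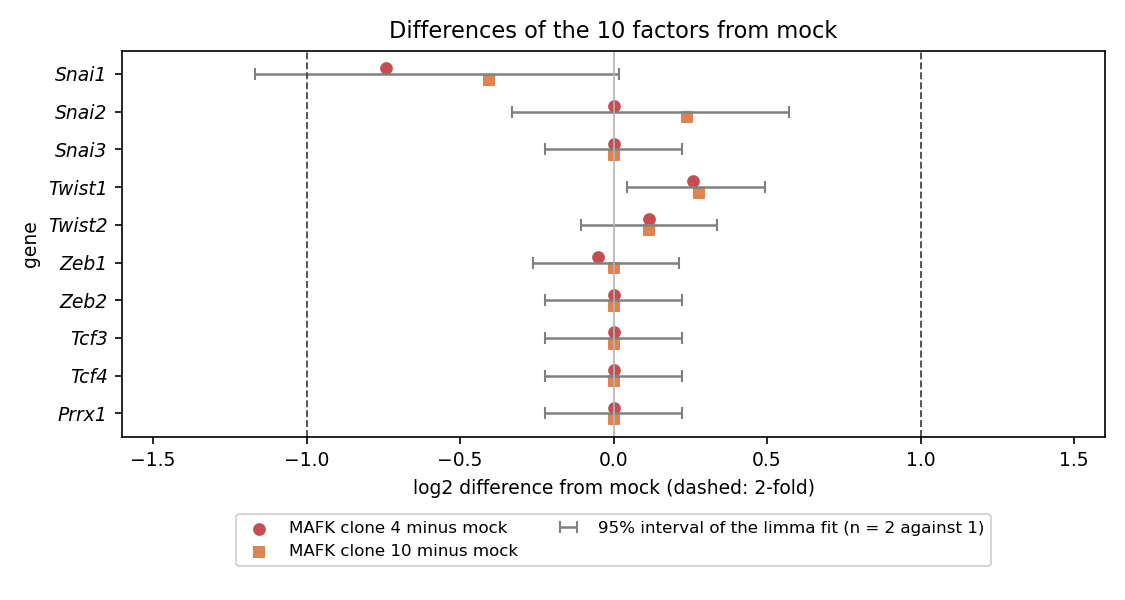
Log2 difference from mock (x axis) of each factor (y axis) in MAFK clone 4 (circles) and MAFK clone 10 (squares), with the 95% interval of the limma fit (bars, n = 2 against 1). No point passes the dashed lines at 2-fold, and only the Twist1 interval leaves out 0.

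The signal limits these values. No detection p-values were used, and endothelial and immune markers, which this line should lack, read between 5.20 and 7.88 across the arrays (14 of 15 markers measured, none 2-fold apart in both clones). The values of Prrx1, Snai3 and Twist1 all lie below the median of all probe sets (6.91), and without a detection measure expression and background cannot be told apart there. The same holds for 1 side of the comparison for Cdh1, Mmp3 and Foxf1 (the clones). It also holds for Foxa1, Pdgfrb, Fstl1, Loxl1, Loxl3, Usp27x, Hand1 and Crb3 (mock) and, on all 3 arrays, for Msc. Differences of these genes are given as differences between readings, with no fold of RNA. Readings up to 7.88 also lie within the range of those markers, such as those of Wtip, Itgb4, Lsr, Foxa2 and Tgfb2 in the clones and of Siah2 and Egr1 in mock. Of the 10 factors, Snai2 read 7.88 in clone 4 and in mock, at the top of that range. Folds of such genes may not be those of RNA. Of the epithelial markers, the keratin genes Krt8, Krt18 and Krt19 read 13.18, 10.92 and 12.25 in clone 4, 13.31, 11.08 and 12.08 in clone 10, and 13.67, 11.95 and 11.99 in mock. Epcam, Grhl2 and Esrp1, also epithelial markers, had the same value on all 3 arrays (5.58, 5.63 and 5.48). These values too lie below the median of all probe sets, where expression and background cannot be told apart. Of 12 epithelial markers, only Cdh1 was 2-fold apart in both clones, and it was lower. None of 8 basal markers was 2-fold apart, and of 9 fibroblast markers 1, Dcn, was 2-fold lower. The summed level of the epithelial markers was 14.06 in clone 4 and 14.10 in clone 10, against 14.58 in mock, that of the fibroblast markers 9.90 in clone 4 and 9.86 in clone 10, against 9.91 in mock, and that of the basal markers 9.69 and 9.65, against 9.74 (log2 of summed intensities).

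Between clone 10 and clone 4, none of the 10 factors differed by 2-fold, against 0.441% of all genes. Snai1 was 0.34 higher and Snai2 0.24 higher in clone 10 on the log2 scale, and the other 8 differed by at most 0.05.

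By the distance between the pair of differences from mock (clone 4 and clone 10), the genes closest to Snai1 among 5549 of similar mean were Tmem161b, Zfp729a, Odr4, Thap2 and Lmo7. Their distances were 0.02 to 0.07 on the log2 scale. Tmem161b, the nearest, read 8.63 in clone 4 and 8.95 in clone 10, against 9.36 in mock. With 3 arrays many genes fall close to any such pair.

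The genes through which the factors act, or that act on them, were described from 9 lists of known partners, regulators and targets, with 217 genes measured besides the 10. Both clones were at least 2-fold above mock for 6 of these 217 genes (1.19% of all genes) and 2-fold below for 13 (1.81% of all genes). Of the 217, 4 rose and 8 fell, against 0.401% and 0.762% of all genes. The remaining 198 were not 2-fold apart. At an unadjusted p under 0.05, limma passed 67 of the 217 genes, against 17.5% of all genes. The counts by list, in which a gene can recur, included 18 of 41 epithelial and 13 of 32 mesenchymal targets. They also included 11 of 25 other transition factors, 8 of 26 corepressors, 7 of 16 antagonists and 3 of 24 turnover genes. The list medians lay between 0 and 0.03 on the log2 scale in each clone, against 0 over all genes. Values equal to mock can hold a median at 0. The epithelial targets had mean differences of -0.36 in clone 4 and -0.44 in clone 10, against 0.01 in each over all genes. Those of the mesenchymal targets were 0.10 and 0.23. Means of the other lists lay between -0.14 and 0.00.

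**Figure D3:**
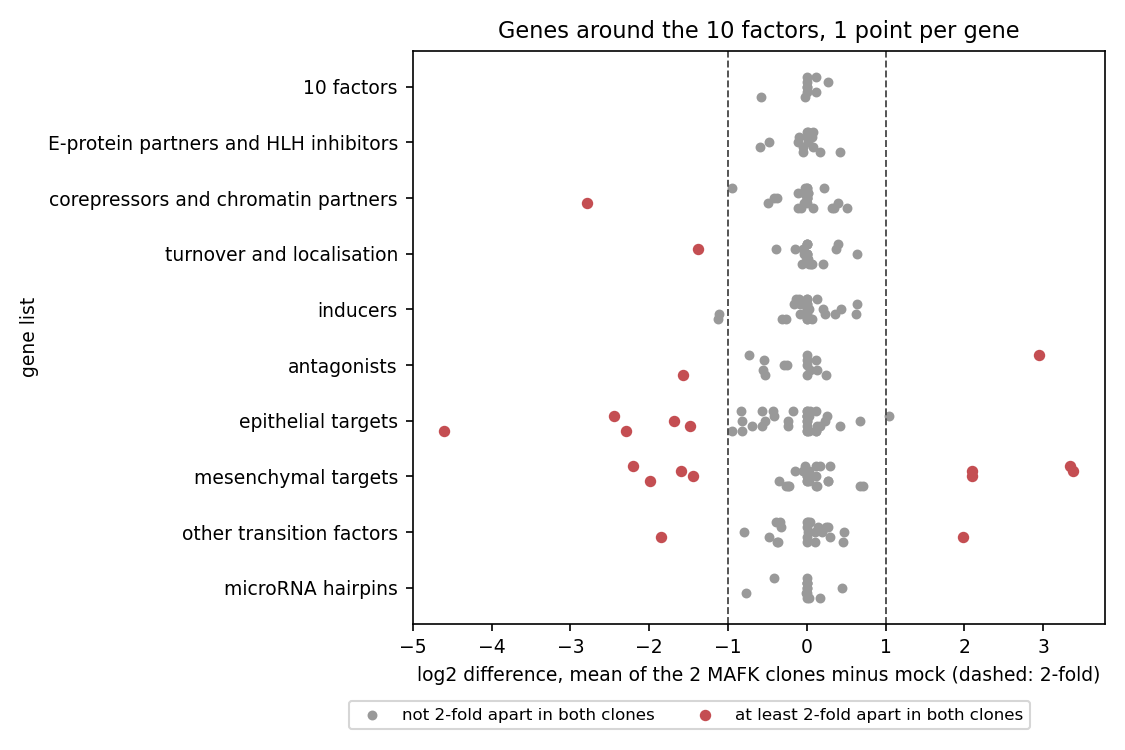
Log2 difference of the mean of the 2 MAFK clones from mock (x axis), 1 point per gene, for the 10 factors and 9 lists of related genes (y axis). Red points are at least 2-fold apart in both clones in the same direction, and none is a member of the 10 factors. The vertical scatter within a list carries no value.

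Among partners and inhibitors of the E-proteins, none of 15 genes was 2-fold apart in both clones and none passed limma over all genes, with 3 at an unadjusted p under 0.05 (17.5% of all genes). Tcf12, which encodes another E-protein, read 10.54 in clone 4 and 10.63 in clone 10, against 10.63 in mock. Of the ID genes, Id2 lay below mock in both clones, at 12.26 and 12.13 against 12.68 (limma adjusted p = 0.181), while Id1 read 10.55 in both clones, against 10.60 in mock. Hes1, a bHLH repressor downstream of Notch, read 8.17 and 8.01 in clones 4 and 10, against 8.68 in mock (limma adjusted p = 0.162). Hand1, a bHLH factor, was 0.42 higher and Msc, which encodes musculin, 0.17 higher on the log2 scale, neither passing.

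Of 26 corepressor and chromatin partner genes, 1 fell and none rose, against 0.762% and 0.401% of all genes. Wtip, a LIM-domain protein of the Ajuba family that binds the SNAG domain of SNAIL, read 7.30 in clone 4 and 7.28 in clone 10, against 10.08 in mock. Both clones lay far below mock and close to each other, and Wtip fell 6.91-fold in intensity (limma adjusted p = 0.0256). Ajuba, of the same family and role, read 9.37 in clone 4 and 9.57 in clone 10, against 10.42 in mock, 1.92-fold lower without passing (limma adjusted p = 0.111). Ajuba, like Mmp14 below, lies on chromosome 14, whose genes had a mean difference from mock of -0.17 in clone 4 and -0.08 in clone 10. Whether this bears on either gene was not tested. Eed, a subunit of the Polycomb complex that methylates histones, was 1.40-fold lower (limma adjusted p = 0.138). Its difference was -0.49 on the log2 scale, and -0.24 with the mean over probe sets. Loxl3, a lysyl oxidase-like protein known to bind SNAIL, was 0.51 higher on the log2 scale (limma adjusted p = 0.191). Neither passed.

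Of 24 genes of turnover and localisation, 1 fell and none rose, against 0.762% and 0.401% of all genes. Mdm2, the ubiquitin ligase of p53, which in human cells also acts on SLUG, read 8.88 in clone 4 and 8.95 in clone 10, against 10.29 in mock, and fell 2.60-fold (limma adjusted p = 0.0439). Siah2, another ubiquitin ligase, was 1.55-fold higher and the kinase gene Atm 1.31-fold lower, while Usp27x, a deubiquitinase, was 0.40 higher on the log2 scale. Their limma adjusted p-values were 0.153 to 0.308.

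None of 28 inducer genes was 2-fold apart in both clones, and none passed limma over all genes, with 4 at an unadjusted p under 0.05 (17.5% of all genes). The ligand gene Tgfb2 read 7.31 in clone 4 and 7.53 in clone 10, against 8.53 in mock. Its clone 10 difference fell just short of 2-fold, and the mean was 2.15-fold lower (limma adjusted p = 0.0996). With each array centred on its median, Tgfb2 was past both thresholds (limma adjusted p = 0.0425). Tgfb1, the ligand most used to induce the transition, read 10.05 in clone 4 and 9.72 in clone 10, against 11.02 in mock, 2.19-fold lower (limma adjusted p = 0.140). Stat3 was 1.36-fold higher and the immediate-early gene Egr1 1.56-fold higher, neither passing.

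Of 16 antagonist genes, whose factors are known to hold cells epithelial, 1 rose, 1 fell and the other 14 were not 2-fold apart. Over all genes 0.401% rose and 0.762% fell. Foxa1, a pioneer forkhead factor of luminal mammary cells, read 9.48 in clone 4 and 9.19 in clone 10, against 6.39 in mock. It rose by 2.95 on the log2 scale (limma adjusted p = 0.0439), a call lost with a second quantile normalization (limma adjusted p = 0.0621) and with the mean over probe sets (0.0516). With the mean over probe sets the Foxa1 difference stayed at 2.95, and only its adjusted p moved. Its paralog Foxa2 read 7.46 in both clones, against 9.04 in mock, and fell 2.98-fold (limma adjusted p = 0.0351). Grhl3, a grainyhead factor of barrier epithelia, read 6.94 in clone 4 and 6.99 in clone 10, against 7.69 in mock (limma adjusted p = 0.0835). Esrp2, a splicing factor of epithelial isoforms, read 8.31 in both clones, against 8.84 in mock (limma adjusted p = 0.112).

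Of 41 epithelial target genes, 5 lay at least 2-fold below mock in both clones, none lay as far above, and 3 fell, against 1.81%, 1.19% and 0.762% of all genes. These were Cdh1, the hemidesmosome integrin gene Itgb4 and the tight junction scaffold gene Tjp1. Itgb4 read 7.17 in both clones, against 9.46 in mock, and Tjp1 read 9.55 in clone 4 and 9.51 in clone 10, against 11.01 in mock. Lsr, whose window held 4 E-boxes, read 7.20 in clone 4 and 6.92 in clone 10, against 9.50 in mock, 5.43-fold lower without passing (limma adjusted p = 0.0517). It passed under 4 alternatives (limma adjusted p of 0.0316 to 0.0486). The desmosomal plakophilin gene Pkp2 read 7.09 in clone 4 and 7.59 in clone 10, against 9.02 in mock (limma adjusted p = 0.138). Crb3, whose window also held 4 E-boxes, lay above mock in both clones, with log2 differences of 0.62 (clone 4) and 0.23 (clone 10) and a limma adjusted p of 0.505. Windows were found for only 24 of the 41 genes, so a check of the motif over the list is void. Of these 24 genes, 19 held at least 1 match (20.2% of all windows, though some genes have several). Of the 19, 7 lay below mock in both clones, 5 above, and 1, Lsr, was 2-fold lower, against 17.9%, 33.7% and 1.81% of all genes. Of the 5 without a match, 1, Tjp1, was also 2-fold lower. No window was found for Cdh1.

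Of 32 mesenchymal target genes (Twist1 among them), 2 rose and 1 fell, against 0.401% and 0.762% of all genes. Both clones lay at least 2-fold above mock for 4 and below it for 4, against 1.19% and 1.81% of all genes. Fn1, the fibronectin gene, read 12.40 in clone 4 and 12.45 in clone 10, against 10.33 in mock, and rose 4.28-fold (limma adjusted p = 0.0311). The receptor gene Pdgfrb read 9.95 in clone 4 and 10.30 in clone 10, against 6.78 in mock, and rose by 3.34 on the log2 scale (limma adjusted p = 0.0461). Its call was lost with a second quantile normalization (limma adjusted p = 0.0723) and with the mean over probe sets (0.0549). With the mean over probe sets the Pdgfrb difference stayed at 3.34, and only its adjusted p moved. Fstl1 and the lysyl oxidase-like gene Loxl1 were 3.38 and 2.10 higher on the log2 scale without passing (limma adjusted p = 0.0677 and 0.187). Mmp3, a stromelysin and a known inducer of Snail in mouse mammary cells, read 5.92 in clone 4 and 5.93 in clone 10, against 7.92 in mock, and fell (limma adjusted p = 0.0311). S100a4, Mmp14 and Tnc, commonly used as mesenchymal markers, were 4.60-fold, 3.01-fold and 2.71-fold lower without passing (limma adjusted p = 0.231, 0.164 and 0.0985). For S100a4 the clones themselves were 1.10 apart on the log2 scale, at 8.82 (clone 4) and 9.92 (clone 10), against 11.57 in mock.

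**Figure D4:**
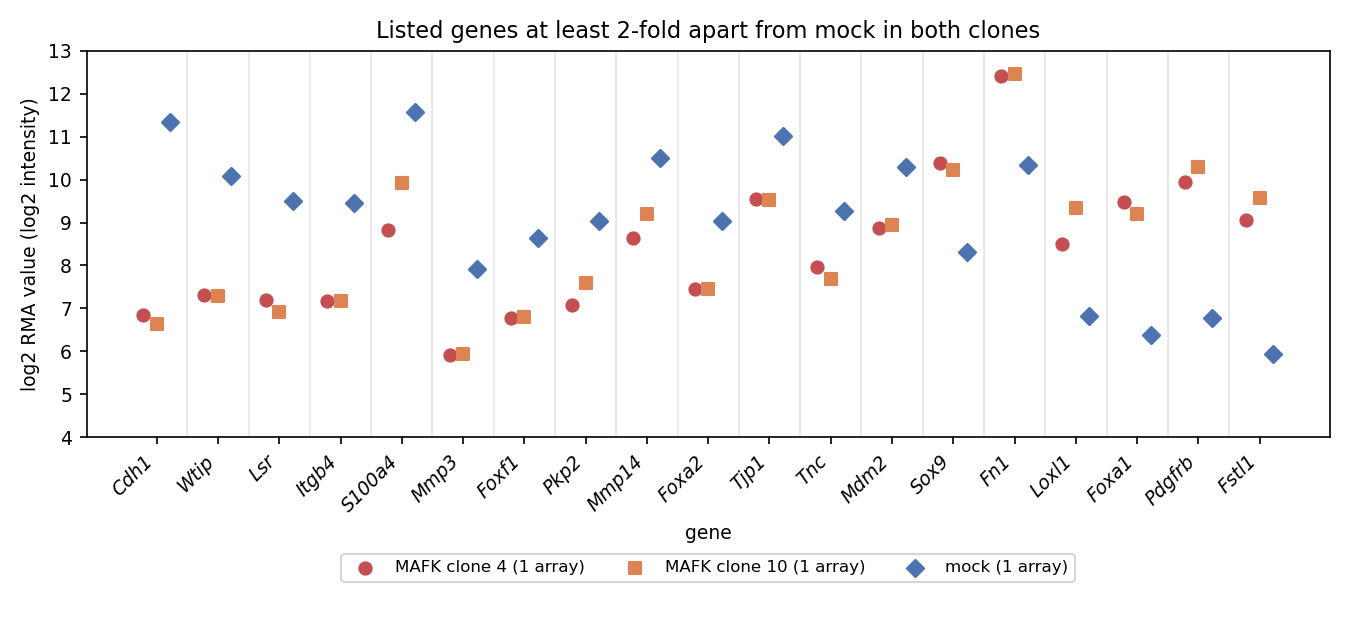
Log2 RMA values (y axis) on each array of the 19 listed genes for which both clones differed from mock by 2-fold or more (x axis, ordered by difference), with MAFK clone 4 as circles, MAFK clone 10 as squares and mock as diamonds. Cdh1, at the left, reads 6.85 and 6.64 in the clones against 11.35 in mock, and Fstl1, at the right, reads 9.06 and 9.57 against 5.93.

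Among 25 other transition factors, 1 rose and 1 fell, against 0.401% and 0.762% of all genes. Sox9, a factor of mammary progenitors, read 10.38 in clone 4 and 10.23 in clone 10, against 8.32 in mock (limma adjusted p = 0.0430, or 0.0548 with a second quantile normalization, where the call was lost). Foxf1, a forkhead factor of visceral mesoderm, read 6.78 in clone 4 and 6.79 in clone 10, against 8.64 in mock, and fell by 1.85 on the log2 scale (limma adjusted p = 0.0315). Tead4, a DNA-binding partner of YAP, was 1.73-fold lower and Tead1, its paralog, 1.37-fold higher, neither passing (limma adjusted p = 0.0730 and 0.145). With the mean over probe sets the Tead1 difference was 0.23 on the log2 scale, against 0.46. That of Foxf1 was -2.27, against -1.85.

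The microRNAs of the miR-200 family repress Zeb1 and Zeb2 and are repressed by them in turn. Mature sequences (RefSeq, GRCm38.p6) are shown for the 4 family members whose hairpin had a probe set, with the seed (bases 2 to 8) in capitals. They form 2 seed groups that differ at 1 base of the seed.
mmu-miR-200b-3p: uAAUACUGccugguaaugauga
mmu-miR-200c-3p: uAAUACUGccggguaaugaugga
mmu-miR-200a-3p: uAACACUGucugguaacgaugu
mmu-miR-141-3p: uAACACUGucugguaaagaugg
The hairpin probe set of Mir200c read 6.59 in both clones, against 6.14 in mock (limma adjusted p = 0.136). Those of Mir200b, Mir200a and Mir141 each had the same value on all 3 arrays (5.71, 6.60 and 5.41). Of 14 hairpins listed, which include others known to target the factors, none was 2-fold apart in both clones and none passed limma, with 3 at an unadjusted p under 0.05 (17.5% of all genes). The largest difference was that of Mir34a, whose microRNA targets Snai1 and is induced by p53, at 5.35 in clone 4 and 5.63 in clone 10, against 6.26 in mock (limma adjusted p = 0.178). All hairpin values given here lie below the median of all probe sets, and whether these probe sets follow the mature microRNAs was not tested.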

How the data were processed

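Total RNA of 3 NMuMG samples (MAFK clone 4, MAFK clone 10 and mock) was labelled with biotin for Affymetrix GeneChip arrays, per the labels' protocols. The authors deposited log2 intensities of probe sets, for which the submitters' processing notes name RMA. The RMA version, filters and genome build are not given in the sources used here, and scanner files were not used here.

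Of 28815 probe sets, 21780 had 1 gene symbol in the platform's annotation, 1605 had several and 5430 had none. Symbols were updated by Entrez identifier through RefSeq genes of GRCm38.p6 (21689 probe sets matched), and the probe set with the highest mean stood for each of 19935 genes. Array medians were 6.92 in clone 4, 6.93 in clone 10 and 6.89 in mock. The number of arrays limits the precision.

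Each gene was fitted with limma 3.58.1 in R 4.3.3 (MAFK minus mock, 1 residual degree of freedom, two-sided, Benjamini-Hochberg over all genes). Because 55.5% of genes had equal values in the clones, the prior (1.93 degrees of freedom, SD 0.0694) was estimated on the 8873 genes with unlike clones and used for every gene. Genes equal in the clones have the smallest standard error, 0.0690, so ties favour passing. The fit was tested on simulated data.

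The 10 factors and the gene lists were chosen with earlier results of these data known. Of 233 listed symbols, 218 were measured, 1 of them a member. The genes named are the 10 factors, every listed gene at least 2-fold apart in both clones, up to 4 per list by the smaller of the clones' differences, and the 5 genes nearest Snai1. Crb3, Tcf12, Id1, the named markers and the miR-200 hairpins besides Mir200c were added after their values were seen. Alternatives were a second quantile normalization, median centring, a prior from all genes with and without an intensity trend, dim genes left out, the mean over probe sets, a 1.5-fold threshold and each clone left out.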

Additional observations from a re-analysis of the deposited data

How the results depend on the processing

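No alternative brought any of the 10 factors to 2-fold, or to 1.5-fold in both clones. Across the 9 alternatives run, none of 87 values of the factors became a call. Zeb1 changed sign, to 0.0058 after a second quantile normalization against -0.03 as reported, both within its interval. Twist1 and Twist2 passed the p threshold alone under 4 and 2 of the alternatives, and with arrays centred on the median so did the 5 factors with tied values, each shifted to -0.03 (limma adjusted p = 0.0402). With all arrays in, no factor moved by more than 0.05 on the log2 scale, and Snai1 ranged from -0.74 to -0.41 when either clone was left out. Leaving out dim genes removed Snai3, Twist1 and Prrx1. Over all genes the count that rose or fell was 232, and 439 with arrays centred on the median, 360 with the prior from all genes and 398 with an intensity trend added. With 1 clone left out no test was possible and genes were counted by fold alone, which gave 715 to 753 genes, and 21 to 24 of the listed genes against 12. The looser rule, fold alone in 1 clone, is part of both changes. At 1.5-fold in both clones 1230 genes were apart, against 598 at 2-fold, 9 of them epithelial targets against 5. Of 364 values of named genes, 5 lost their call (Foxa1, Pdgfrb and Sox9) and 8 gained one (Fstl1, Lsr, Tgfb2 and Tnc), all in the same direction. The other 351 include the values with 1 clone left out, which had no test and so could not lose or gain a call. They also include values that changed in size under the mean over probe sets. The differences of Eed and Tead1 shrank there, to -0.24 and 0.23, and that of Foxf1 grew, to -2.27. Robust estimation of the prior was not run because limma stopped at variances that are mostly 0, and other background corrections need scanner files. No paired analysis was possible because mock is 1 array. Low signal limits Prrx1, Snai3, Twist1, Msc and the hairpins, and Snai2 read at the top of the marker range in clone 4 and mock. It also limits the size of the differences of Cdh1, Mmp3, Foxf1, Foxa1, Pdgfrb, Fstl1, Loxl1, Loxl3, Usp27x, Hand1 and Crb3.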
